A study of Mus musculus with 2 samples.

Results

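Chemokine receptors are membrane proteins coupled to G proteins that sense small secreted chemokines and steer leukocytes into, within and out of tissues. Each receptor answers to its own set of ligands, and a leukocyte class carries a characteristic set of receptors, so the receptors mark where a cell can travel. In the lung they are known for guiding the entry of monocytes and neutrophils, the exit of dendritic cells toward lymph nodes and the retention of T cells. The 9 receptor genes described here (Ccr1, Ccr2, Ccr6, Ccr7, Ccr9, Cxcr2, Cxcr4, Cxcr6 and Cx3cr1) were chosen by their symbols among the 27998 genes of the matrices, and all 9 were found.

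Single-cell RNA-seq libraries were made from the digested lungs of male C57Bl/6J mice aged 3 months with the 10x Genomics 3′ V2 chemistry, in which each captured RNA molecule is counted once by its unique molecular identifier (UMI). The 2 libraries came from 1 mouse each, labelled control and fibrosis. Particles were given into the trachea at 100 µg, either titanium dioxide (TiO2), a particle, or crocidolite asbestos, a mineral fibre, and lungs were taken 14 days later. The labels do not state which mouse received which particle, so the libraries are named control and fibrosis throughout. No allele or transgene was named, and no sort for leukocytes was described.

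With 1 library per group, no difference between libraries was tested, and mouse, library and exposure cannot be told apart. All intervals are exact 95% intervals that cover counting error only. Levels are given as CPM, the UMIs of a gene scaled to the total UMIs of its class in a library. They compare 1 gene between cells, since reads from the 3′ end give no measure per gene length that would compare 2 genes.

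The control library held 8280 cells and the fibrosis library 7173, with medians of 3783.5 and 4292 UMIs per cell. After filters on genes, mitochondrial UMIs and likely doublets (515 and 386 cells removed), 7510 and 6559 cells were kept. 89 barcodes occurred in both libraries, and leaving out their cells moved none of the 50 ratios described below by more than counting error. Marker gates that contain none of the 9 receptors placed 5044 control and 3335 fibrosis cells in 15 leukocyte classes. A further 1315 and 1783 cells met no gate or met 2 gates. The gates were loosest for group 2 innate lymphoid-like, type 2 dendritic-like and T-like cells, of which 47.8%, 47.5% and 39.2% lay at the edge of the rule, against 6.53% of alveolar macrophage-like cells. In each leukocyte class the median cell carried 4 to 8 markers of its own class and 1 to 3 of the next. The share of gated leukocytes that were classical monocyte-like was 27.6% in the control against 9.54% in the fibrosis library, and that of neutrophil-like cells 11.7% and 2.19%. Alveolar macrophage-like cells made up 13.5% and 27.8%, and migratory dendritic-like cells 0.178% and 2.46%.

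Of the 9 genes, 5 lie on mouse chromosome 9 (GRCm38, GENCODE annotation). Ccr9 (ENSMUSG00000029530, chr9:123678439-123784330), Cxcr6 (ENSMUSG00000048521, chr9:123806475-123811760), Ccr1 (ENSMUSG00000025804, chr9:123962124-123968692) and Ccr2 (ENSMUSG00000049103, chr9:124101950-124113557) lie within 435119 bases. Cx3cr1 (ENSMUSG00000052336) is at chr9:119901616-120069879. Cxcr2 (ENSMUSG00000026180) is at chr1:74153989-74161246 and Cxcr4 (ENSMUSG00000045382) at chr1:128588199-128592293. Ccr7 (ENSMUSG00000037944) is at chr11:99144196-99155077 and Ccr6 (ENSMUSG00000040899) at chr17:8236043-8257141. The 4 neighbours on chromosome 9 were highest in different classes: Ccr9 in plasmacytoid dendritic-like, Ccr1 in neutrophil-like and Ccr2 in classical monocyte-like cells of both libraries, and Cxcr6 in T-like and group 2 innate lymphoid-like cells. Classical monocyte-like cells also held 24.3% of control Ccr1 UMIs. The gene models of Ccr9 and Cx3cr1 overlap other genes on the same strand, and that of Cxcr6 overlaps Fyco1 on the other strand. How reads in such overlaps were counted is not given in the sources used here.

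Ccr1 and Cxcr2 were both at their highest in neutrophil-like cells, and the sequences upstream of these 2 genes are shown for that reason. RefSeq promoters (GRCm38.p6) were matched for 8 of the 9 receptors. Each stretch runs 5′ to 3′ on the gene's strand from 250 to 51 bases before the annotated start, and capitals mark GAGGAA or its reverse complement TTCCTC, the core of the PU box, a site of the myeloid and B cell factor PU.1. Ccr1 is read from chr9:123968743-123968942 on the minus strand and Cxcr2 from chr1:74153744-74153943 on the plus strand.
Ccr1: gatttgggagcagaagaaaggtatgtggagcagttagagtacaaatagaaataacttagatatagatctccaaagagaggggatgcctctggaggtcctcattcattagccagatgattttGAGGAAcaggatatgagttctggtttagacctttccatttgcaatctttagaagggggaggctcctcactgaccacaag
Cxcr2: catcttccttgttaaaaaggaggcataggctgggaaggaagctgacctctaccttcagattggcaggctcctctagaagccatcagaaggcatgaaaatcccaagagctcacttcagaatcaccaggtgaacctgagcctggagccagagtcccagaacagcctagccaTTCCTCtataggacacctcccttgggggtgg
The 6 letters occurred in 18.8% of the 32851 windows of this length in the promoter table and in those of 3 receptors (Ccr1, Cxcr2 and Ccr6). A match is a description of letters and not a measured binding site.

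Ccr2 and Cx3cr1 levels ran in opposite directions between the 2 monocyte-like classes, though many cells carried both. UMIs of both were found in 34.7% of control classical and 26.1% of control nonclassical monocyte-like cells. Ccr2, the receptor for the monocyte attractant Ccl2, was at 945 CPM (923 to 968) in control and 960 CPM (909 to 1014) in fibrosis classical monocyte-like cells, the circulating inflammatory monocytes. Cx3cr1, the receptor for the membrane-bound chemokine Cx3cl1, was at 110 CPM (102 to 118) and 143 CPM (124 to 165) in the same cells. In nonclassical monocyte-like cells, which patrol the vessel wall, Ccr2 was at 235 and 184 CPM and Cx3cr1 at 396 and 452 CPM in control and fibrosis cells. Ccr2 was thus higher in the classical and Cx3cr1 in the nonclassical monocyte-like cells of both libraries, with intervals that did not overlap.

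Interstitial macrophage-like cells, the C1q-expressing macrophages of the lung's connective tissue, carried the highest Cx3cr1 of any class. It stood at 590 CPM (529 to 657) over 154 control cells and at 564 CPM (525 to 606) over 345 fibrosis cells. Ccr2 in the same cells was at 243 and 266 CPM. Alveolar macrophage-like cells, the resident macrophages of the air spaces, held little of either: Ccr2 was at 16.4 and 10.2 CPM, and Cx3cr1 at 6.33 and 6.96 CPM.

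Other leukocytes carried Ccr2 as well. Type 1 dendritic-like cells, which present antigen to CD8 T cells, had 431 CPM (374 to 494) in the control against 356 CPM (322 to 393) in the fibrosis library. Type 2 dendritic-like cells had 255 and 292 CPM, NK-like cells 222 and 212 CPM, and plasmacytoid dendritic-like cells 165 and 97.3 CPM. In both libraries type 1 dendritic-like cells followed classical monocytes among the classes with at least 20 cells in each library, and the intervals of type 2 dendritic-like, NK-like and interstitial macrophage-like cells overlapped in the control library.

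**Figure D1:**
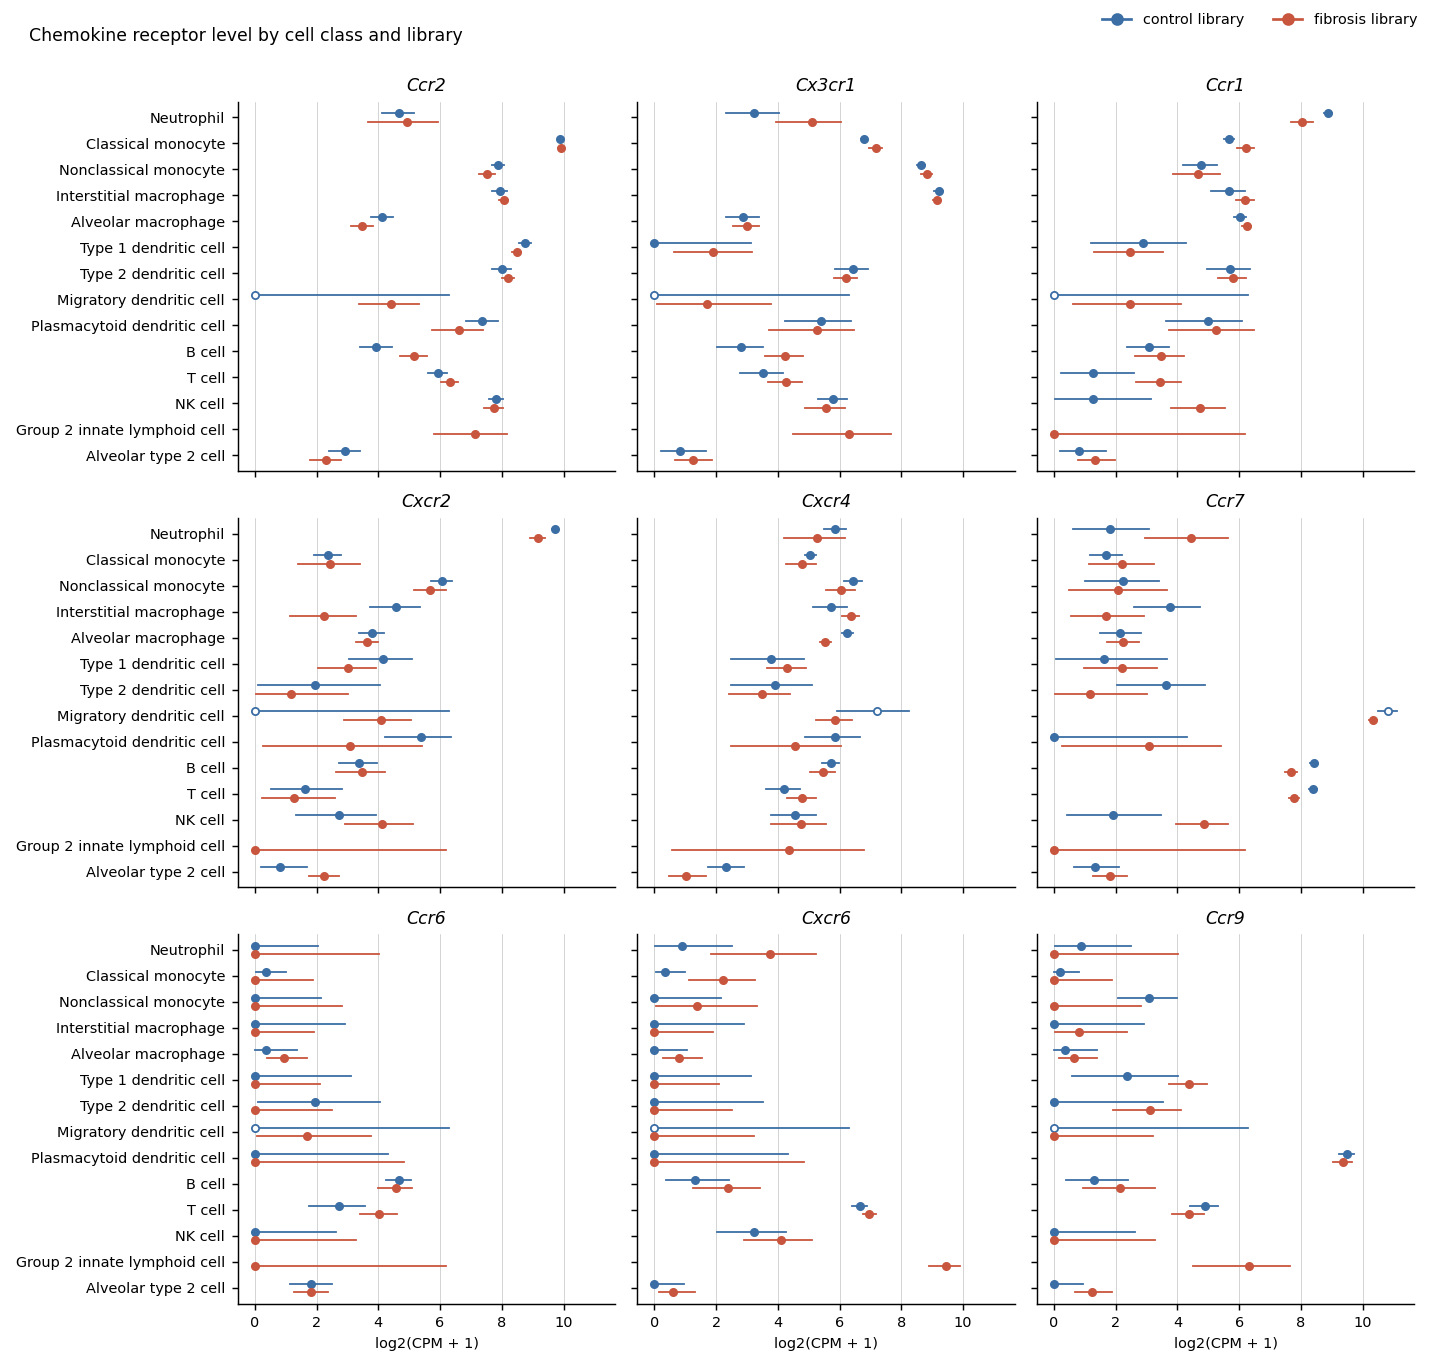
Level of each receptor, as log2(CPM + 1), in 13 leukocyte classes and in alveolar type 2-like cells, with blue points for the control and red points for the fibrosis library. Lines are exact 95% Poisson intervals and open points stand for classes of under 20 cells. Ccr9, Cxcr6, Cxcr2 and Ccr7 stand out in 1 to 3 classes each, while Cxcr4 is spread over most of them.

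Shares of single cells were read against a background class. In classical monocyte-like cells 97.1% of control and 93.4% of fibrosis cells had a Ccr2 UMI, at median depths of 5144 and 4095.5 UMIs. With every cell thinned to 1000 UMIs, the shares were 58.0% and 59.7%. Alveolar type 2-like cells, epithelial cells taken as the background class for free RNA and mixed droplets, had a Ccr2 UMI in 3.98% and 2.12% of cells. Their median depths were 5643 and 5392.5, and the shares were 0.459% and 0.707% after thinning. Their Ccr2 level was 6.57 and 3.91 CPM. Endothelial-like cells had 61.5 and 19.1 CPM, fibroblast-like 70.0 and 24.7 CPM, alveolar type 1-like 19.2 and 69.9 CPM and ciliated-like cells 12.0 and 3.32 CPM. The chosen background was thus lower than the Ccr2 level of endothelial-like, fibroblast-like and alveolar type 1-like cells.
Thinned shares with a Cx3cr1 UMI were 37.7% and 42.6% in interstitial macrophage-like cells, at median depths of 3270 and 3261, and 36.8% in nonclassical monocytes of both libraries. In alveolar type 2-like cells they were 0.306% and 0.101%. Unthinned, a Cx3cr1 UMI was found in 67.5% and 69.9% of interstitial macrophage-like cells. In alveolar macrophage-like cells the thinned Cx3cr1 share of 0.588% and 0.647% was near that background.

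Within the interstitial macrophage-like cells, Ccr2 differed between subsets in both libraries. The clusters used for this were made without the 9 receptors among their variable genes, and their levels are given as a description. In the cluster led by Cd209f, Cd5l and Lyve1 (84 control and 123 fibrosis cells), Ccr2 was at 82.3 and 94.6 CPM. In the cluster led by Zmynd15 and Clec4b1 (65 and 184 cells), it was at 390 and 428 CPM. The second cluster was above the first in each library, with intervals apart. Cx3cr1 was at 566 and 799 CPM in the first cluster and at 623 and 602 CPM in the second. Its intervals overlapped in the control library, while in the fibrosis library the first cluster was above the second with intervals apart.
Another 26 cells, all from the fibrosis library, fell in the alveolar macrophage cluster led by Mmp12 though they passed the interstitial gate. They had 0 Cx3cr1 UMIs, which allows up to 14.3 CPM, and 28.6 CPM of Ccr2. Their Ccr1 level was 124 CPM (81.0 to 182).

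Classical monocyte-like cells showed another arrangement. Over the 3 clusters that held most of them, pooled over both libraries, Ccr2 was at 958, 933 and 946 CPM. Cx3cr1 was at 87.7 CPM in the cluster led by Wfdc21 and Thbs1 and at 172 and 181 CPM in the clusters led by Adgre4 and Rtp4 and by Cd209a and Cxcl10. Ccr1 ran the other way, at 64.0, 33.5 and 10.3 CPM in the same order. Ccr2 was thus near level over clusters in which Cx3cr1 and Ccr1 differed.

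**Figure D2:**
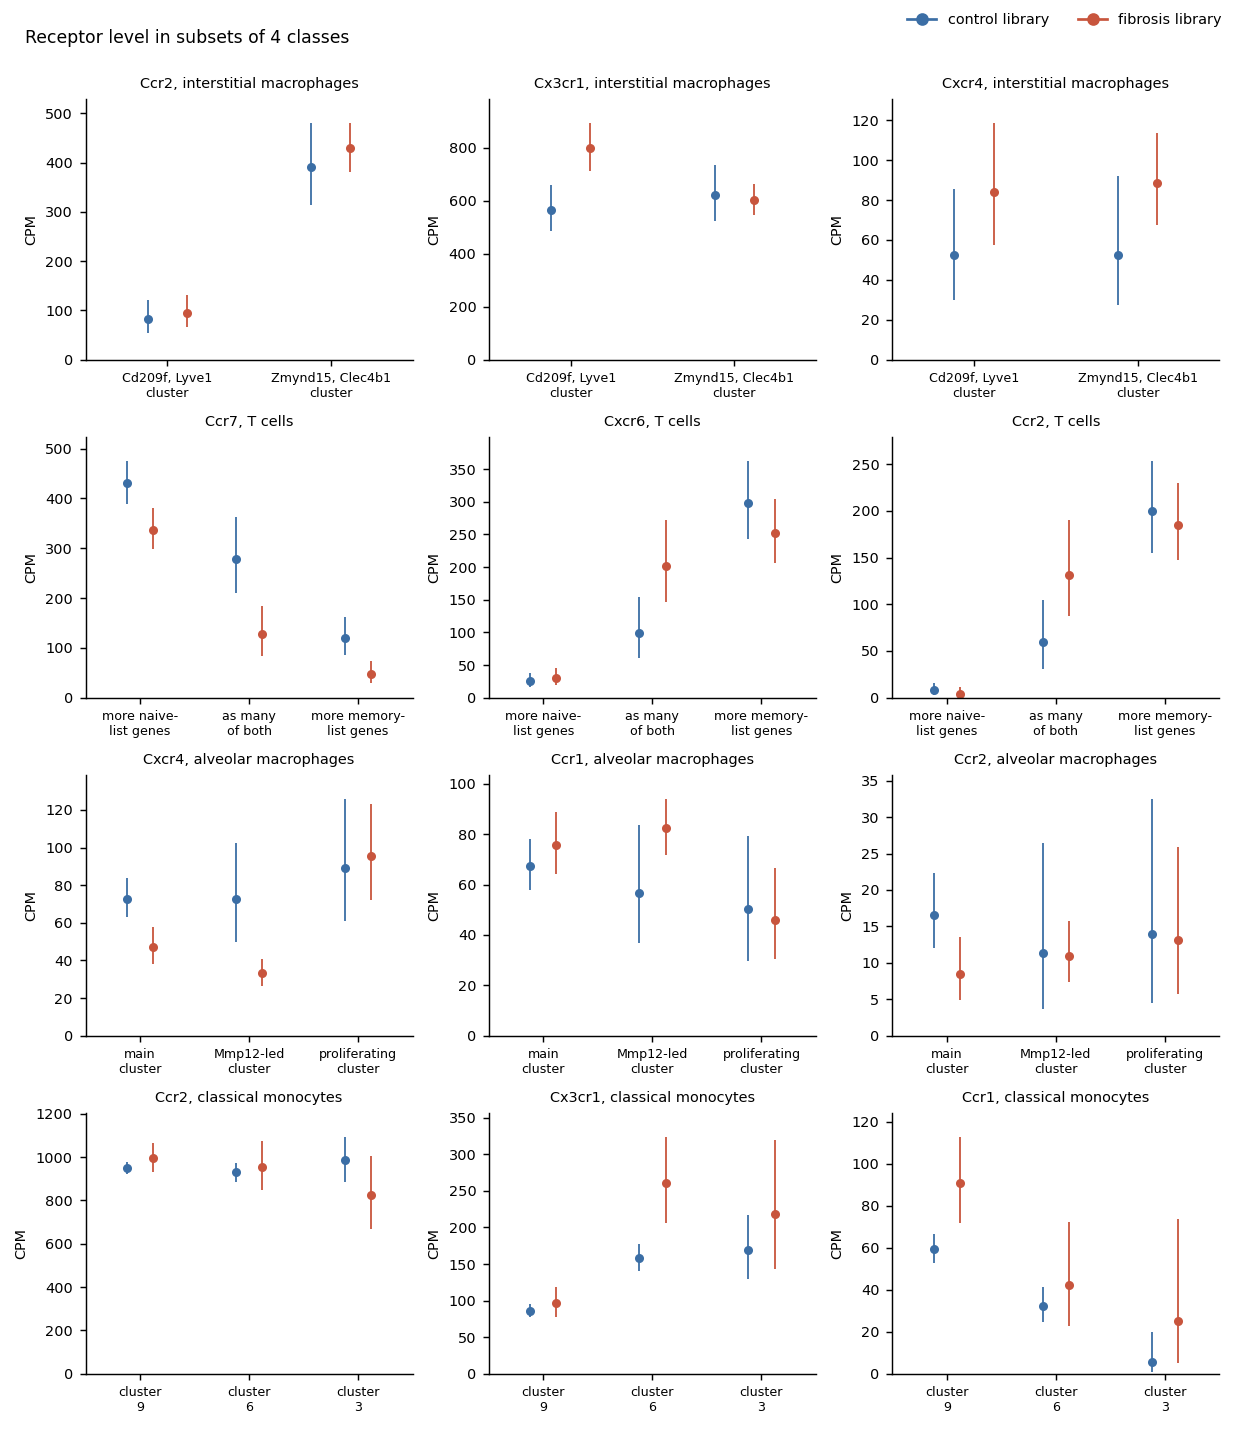
Receptor levels in CPM within interstitial macrophage-like, T-like, alveolar macrophage-like and classical monocyte-like cells, by cluster or by T cell gene list, with blue points for the control and red points for the fibrosis library and exact 95% Poisson intervals. Ccr2 is near 400 CPM in the second interstitial macrophage cluster and under 100 CPM in the first, and Ccr7 and Cxcr6 run in opposite directions over the T-like cells.

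Ccr1, a receptor for Ccl3, Ccl5 and related chemokines, was highest in neutrophil-like cells, at 470 CPM (432 to 511) in the control against 263 CPM (202 to 336) in the fibrosis library. Alveolar macrophage-like cells followed among classes of at least 20 cells, at 64.5 and 75.2 CPM, with classical monocyte-like cells at 50.04 and 73.0 CPM and interstitial macrophage-like cells at 49.6 and 72.0 CPM. Type 2 dendritic-like cells had 51.0 and 54.2 CPM, whereas type 1 dendritic-like cells had 6.31 and 4.48 CPM. In the fibrosis library the intervals of the macrophage, classical monocyte and type 2 dendritic classes overlapped. In the control library that of alveolar macrophage-like cells (56.3 to 73.5) lay above that of classical monocyte-like cells (45.0 to 55.5), and the other pairs overlapped.

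Cxcr2, the receptor for neutrophil attractants such as Cxcl1 and Cxcl2, was at 840 CPM (789 to 894) in control and 571 CPM (480 to 675) in fibrosis neutrophil-like cells. Nonclassical monocyte-like cells came next among classes of at least 20 cells, at 65.2 and 50.4 CPM. Most of that signal sat in a cluster of 40 and 15 cells led by the neutrophil genes Ngp, Camp and S100a8, with 366 CPM of Cxcr2 over both libraries, against 5.55 CPM in the main nonclassical cluster. After thinning, 58.1% of control and 43.8% of fibrosis neutrophil-like cells had a Cxcr2 UMI, at median depths of 1836.5 and 2386, against 0% and 0.101% of alveolar type 2-like cells; the 0 allows up to 0.459%. Unthinned, the neutrophil-like shares were 79.2% and 87.7%.
Ccr1 and Cxcr2 UMIs occurred together in 44.7% of control neutrophil-like cells, where the product of the separate shares was 44.1%.

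The fibrosis neutrophil-like cells were few and mixed. Of the 73 cells, 43 (58.9%) lay in the neutrophil cluster, against 547 of 590 (92.7%) in the control library. In the cells whose gate and cluster gave the same class, Cxcr2 was at 849 CPM in the control against 876 CPM in the fibrosis library, and Ccr1 at 473 and 353 CPM. The lower Cxcr2 level of the whole gated class (log2 ratio -0.56, -0.82 to -0.30) was therefore at 0.05 (-0.29 to 0.36) in those cells, and that of Ccr1 (-0.84, -1.24 to -0.46) at -0.43 (-0.96 to 0.07).

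Cxcr4, the receptor for Cxcl12 that retains cells in bone marrow and tissue, was found in many classes. In the control library it was at 85.7 CPM (69.1 to 105) in nonclassical monocyte-like and 75.1 CPM (66.3 to 84.8) in alveolar macrophage-like cells. It was at 51.9 CPM in B-like, 51.4 CPM in interstitial macrophage-like, 32.3 CPM in classical monocyte-like and 17.3 CPM in T-like cells. In the fibrosis library interstitial macrophage-like cells came first at 81.8 CPM (67.2 to 98.7), followed by nonclassical monocyte-like cells at 65.0 CPM (46.5 to 88.6). Neighbours at the top of either order overlapped.
No class held more than 29.8% of the Cxcr4 UMIs of either library. By comparison, classical monocyte-like cells held 70.2% of control and 31.2% of fibrosis Ccr2 UMIs, and neutrophil-like cells 66.3% and 28.9% of Cxcr2 UMIs.

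Within the alveolar macrophage-like cells, Cxcr4 in the proliferating cluster was at 89.1 CPM over 47 control cells (32 UMIs) and 95.3 CPM over 80 fibrosis cells (58 UMIs). The main cluster was at 72.8 and 47.1 CPM (193 and 95 UMIs), and the cluster led by Mmp12 at 72.5 and 33.2 CPM (32 and 88 UMIs). The proliferating cluster was the highest in both libraries, but in the control library its interval overlapped those of the other clusters. Proliferating type 1 dendritic-like cells also stood above the rest of their class, at 46.8 against 8.15 CPM over both libraries.

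**Figure D3:**
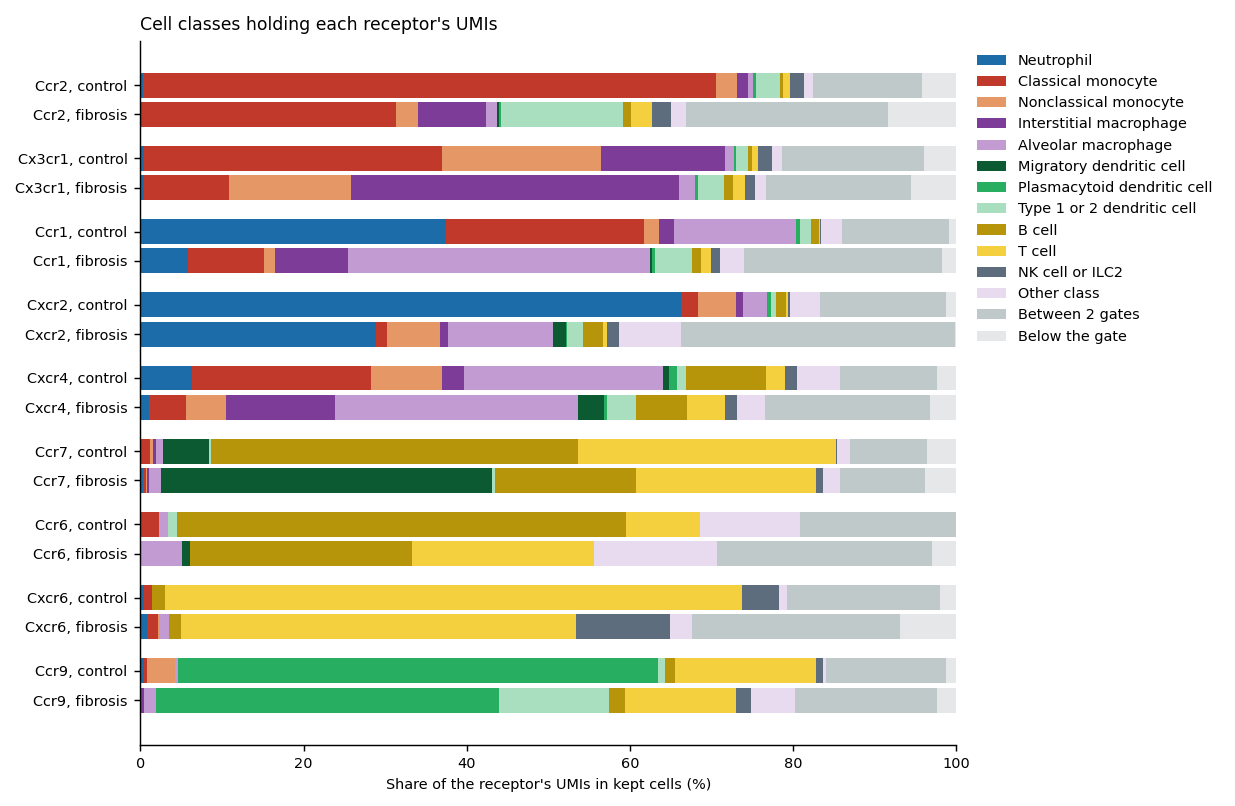
Share of each receptor's UMIs in kept cells (%) by cell class, with 1 bar per receptor and library. Classical monocyte-like cells hold 70.2% of control and 31.2% of fibrosis Ccr2 UMIs, and migratory dendritic-like cells hold 40.6% of fibrosis Ccr7 UMIs.

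Ccr7, the receptor for Ccl19 and Ccl21 that leads cells to lymph nodes, was found in migratory dendritic-like, B-like and T-like cells. Migratory dendritic-like cells, the mature dendritic cells on their way out of the tissue, had 1288 CPM (1184 to 1398) over 82 fibrosis cells and up to 42 Ccr7 UMIs in 1 cell. The 9 cells of that class in the control library had 86 UMIs, or 1804 CPM (1443 to 2227). These few cells held 40.6% of the fibrosis library's Ccr7 UMIs.
B-like cells had 340 CPM (315 to 366) in the control against 205 CPM (180 to 232) in the fibrosis library, and T-like cells 337 CPM (308 to 368) and 217 CPM (194 to 243). The levels of B-like and T-like cells overlapped in each library, and both stood above the next class. A Ccr7 UMI was found in 46.6% of control B-like and 52.5% of control T-like cells, at median depths of 1844 and 2683, and in 25.6% and 23.8% after thinning. In alveolar type 2-like cells the control shares were 0.919% and 0.459%.

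Ccr6, the receptor for Ccl20, was sparse, with 89 control and 99 fibrosis UMIs over all kept cells. B-like cells had 24.2 and 22.7 CPM and T-like cells 5.55 and 15.4 CPM. No Ccr6 UMI was found in NK-like or interstitial macrophage-like cells of either library, which allows up to 4.19 and 6.99 CPM in NK-like and 5.32 and 2.25 CPM in interstitial macrophage-like cells. A Ccr6 UMI was found in 5.06% and 6.05% of B-like cells (2.31% and 2.02% after thinning), against 1.53% and 1.52% (0.153% and 0.202%) of alveolar type 2-like cells. In T-like cells all 22 fibrosis UMIs lay in the cluster led by Il13 and Il1rl1.

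Cxcr6, the receptor for Cxcl16 carried by tissue-resident lymphocytes, was at 99.1 CPM (83.5 to 117) in control and 124 CPM (106 to 144) in fibrosis T-like cells. The 20 group 2 innate lymphoid-like cells of the fibrosis library, which make type 2 cytokines without a T cell receptor, had 35 UMIs, or 689 CPM (480 to 959). The control library held 3 such cells. Those of both libraries lay in the cluster led by Il13 and Il1rl1, together with T-like cells. A Cxcr6 UMI was found in 13.6% and 20.5% of T-like cells (6.11% and 10.4% after thinning), at median depths of 2683 and 2669, against 0% and 0.303% of alveolar type 2-like cells. No Cxcr6 UMI was found in 680 control alveolar macrophage-like cells, which allows up to 0.864 CPM.

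In the T-like cells Ccr7 stood apart from Cxcr6 and Ccr2. Cells with more genes of a naive list (Lef1, Igfbp4, Dapl1, Tcf7) had Ccr7 at 430 and 337 CPM and Cxcr6 at 25.4 and 30.9 CPM in control and fibrosis cells. Cells with more genes of a memory or effector list (Ccl5, Itgb1 and S100a4) had Ccr7 at 119 and 48.1 CPM and Cxcr6 at 298 and 252 CPM. Ccr2 over both libraries was at 5.94 CPM in the first set and 192 CPM in the second.
The same split showed between single receptors. Of the 67 fibrosis T-like cells with a Ccr2 UMI, 38 also had a Cxcr6 UMI (56.7%), against 14.5% of those without one, and 4 had a Ccr7 UMI (5.97%), against 47.0%. Thinned to 1000 UMIs, 13 cells had both Ccr2 and Cxcr6, where the separate shares gave 4.25, and 2 had both Ccr2 and Ccr7, where they gave 7.80.
The cluster led by Il13 and Il1rl1, with 47 control and 117 fibrosis T-like cells, had the highest pooled Cxcr6 of the T-like clusters at 413 CPM, with 297 CPM of Ccr2 and 63.4 CPM of Ccr6. The 3 control and 20 fibrosis group 2 innate lymphoid-like cells lay in the same cluster. Il13 and Il1rl1 are markers of that class, and a Cd3d, Cd3e or Cd3g UMI parts it from the T-like cells. T-like cells of this cluster are thus not cleanly separated from innate lymphoid cells. The cluster led by Klrc1 and Gzma, genes of cytotoxic cells, had 198 CPM of Cxcr6 and 97.3 CPM of Cx3cr1. T-like cells with 2 or more regulatory T cell genes had 287 CPM of Cxcr6 and 229 CPM of Ccr2.

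Ccr9, the receptor for Ccl25 that guides cells to thymus and gut, marked the plasmacytoid dendritic-like cells, the interferon-producing dendritic cells. They had 720 CPM (606 to 850) over 52 control cells and 651 CPM (522 to 803) over 38 fibrosis cells. After thinning, 26 of the 52 control cells and 52.6% of the fibrosis cells had a Ccr9 UMI, at median depths of 3656.5 and 3152, and unthinned 88.5% and 84.2%. In alveolar type 2-like cells the shares were 0% (up to 0.459%) and 0.202% after thinning and 0% and 0.808% unthinned.
T-like cells came next among control classes of at least 10 cells, at 28.4 CPM. In the fibrosis library they had 19.6 CPM, type 1 dendritic-like cells 19.7 CPM and the 20 group 2 innate lymphoid-like cells 78.8 CPM (21.5 to 202), with intervals that overlapped. T-like cells with a Cd8a or Cd8b1 UMI had 44.7 CPM over both libraries, and those with a Cd4 UMI and no CD8 UMI had 0 UMIs.

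For each receptor the 3 genes most like it were taken by Pearson's r of log2(CPM + 1) over 37 class and library points, among 13635 genes with at least 50 UMIs. Gate markers and the 9 receptors themselves were left out of the search, so the genes named are not the nearest of all genes. The points cover 21 classes, both leukocyte and other, and low values in the other classes enter r. The points share 2 libraries and differ in depth, and the values are descriptions. Cxcr2 lay nearest to Gm17619 (r = 0.91), Ly6g (0.83) and Grina (0.81), and Cxcr6 to Podnl1 (0.90), Camk4 (0.90) and Tnfsf11 (0.88). Ccr1 lay nearest to Fcgr3 (0.87), Ccl6 (0.87) and Cfp (0.86), and Ccr2 to Ccdc12 (0.85), Ptpn18 (0.85) and Tnfaip8l2 (0.83). The nearest genes to Cxcr4 were Arhgap30 (0.85), Gpsm3 (0.84) and Crlf2 (0.82), and to Cx3cr1 Pou2f2 (0.84), Apobec1 (0.80) and Clec4a1 (0.80). Ccr6 was nearest to Blk (0.79), Pou2af1 (0.75) and Gm37065 (0.72), Ccr7 to 5830468F06Rik (0.79), BC094916 (0.76) and Slamf6 (0.73), and Ccr9 to Dntt (0.79), Klk1b27 (0.78) and D13Ertd608e (0.75). Among the 9 receptors themselves the highest values were 0.74 for Ccr6 with Ccr7, 0.71 for Ccr1 with Cxcr2 and 0.64 for Ccr2 with Cx3cr1.

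The comparison of the fibrosis with the control library asks how receptor levels differ within each class between the lung labelled fibrosis and the control lung. It covered 50 pairs of receptor and class with at least 20 UMIs over both libraries and at least 10 cells in each. The median log2 ratio of fibrosis over control was 0.09, and the medians over all genes of the 11 classes ran from -0.10 to 0.25. At least 2-fold was passed by 4 pairs (8%), all higher in fibrosis, against 9.19% of all gene and class pairs in either direction and 5.78% in the higher direction. The share of receptor pairs past 2-fold was near that of all genes. The interval excluded 0 in 15 pairs, 7 higher and 8 lower.

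**Figure D4:**
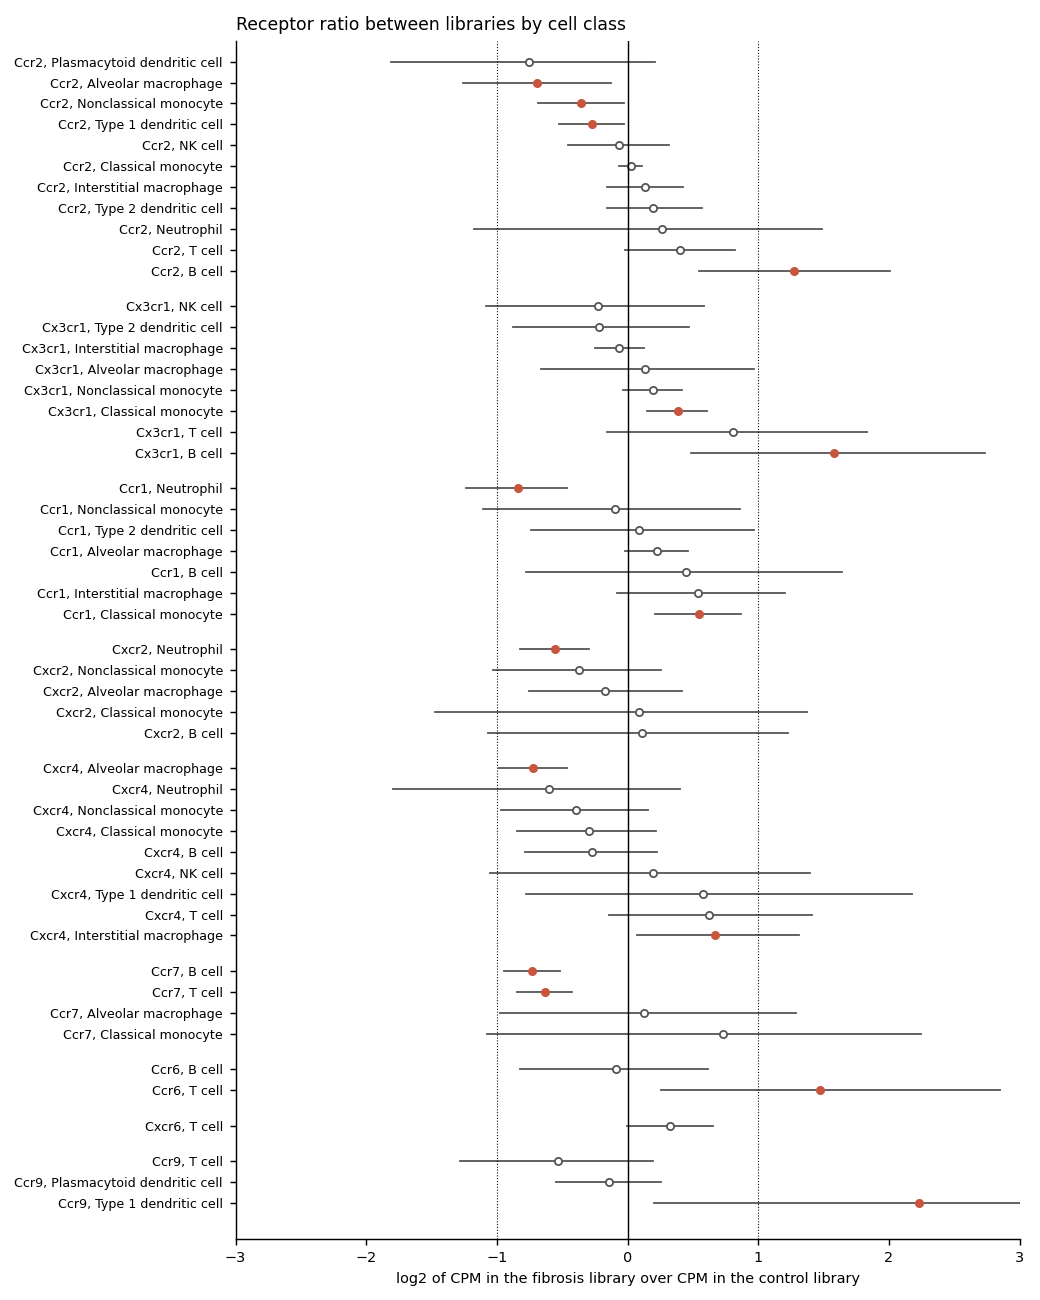
Log2 ratio of CPM in the fibrosis library over CPM in the control library for the 50 receptor and class pairs, with exact conditional 95% intervals, drawn to 3 where they run past it. Filled points mark the 15 pairs whose interval excludes 0, and dotted lines mark a fold of 2. Most pairs lie between the dotted lines.

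The pairs past 2-fold rested on few UMIs. They were 2 of 7 receptors in B-like cells (8.08% of all genes past 2-fold), 1 of 7 in T-like cells (7.33%) and 1 of 3 in type 1 dendritic-like cells (7.64%). Ccr6 in T-like cells had 8 control and 22 fibrosis UMIs (log2 ratio 1.48, 0.25 to 2.85). The Il13 and Il1rl1 cluster, which held 29 of these UMIs, had 47 control and 117 fibrosis cells, and its own Ccr6 level was 56.5 and 66.0 CPM (log2 ratio 0.22, -1.05 to 1.69).
Ccr9 in type 1 dendritic-like cells had 2 control and 22 fibrosis UMIs (log2 ratio 2.23, 0.21 to 5.36). These came from 73 and 160 cells, and 11.9% of the fibrosis cells had a UMI (1.25% after thinning), against 0.808% (0.202%) of alveolar type 2-like cells.
In B-like cells Ccr2 had 29 and 41 UMIs (1.27, 0.55 to 2.01) and Cx3cr1 12 and 21 (1.58, 0.49 to 2.73). Of the fibrosis UMIs, 36 for Ccr2 and 16 for Cx3cr1 were in the 55 gated cells outside the B cell cluster. In the B cell cluster Ccr2 had 24 and 5 UMIs, and its log2 ratio was -1.22 (-2.97 to 0.20).

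No receptor passed 2-fold in the other 8 classes, where the shares of all genes past it were 8.52% in NK-like, 32% in neutrophil-like, 7.61% in classical monocyte-like, 6.81% in nonclassical monocyte-like, 10.8% in interstitial macrophage-like, 5.29% in alveolar macrophage-like, 9.83% in type 2 dendritic-like and 10.2% in plasmacytoid dendritic-like cells. Differences under 2-fold with many UMIs were found for Ccr7, Cxcr4, Cx3cr1, Ccr1, Ccr2 and Cxcr2. That of Cxcr2, in neutrophil-like cells, was at 0.05 (-0.29 to 0.36) where gate and cluster gave the same class.

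Ccr7 was lower in the fibrosis library in both lymphocyte classes. In B-like cells 688 control and 243 fibrosis UMIs gave a log2 ratio of -0.73 (-0.95 to -0.52), and -0.54 (-0.77 to -0.32) within the B cell cluster. In T-like cells 486 and 310 UMIs gave -0.63 (-0.84 to -0.42). T-like cells with more naive-list genes made up 65.0% (60.6 to 69.2) of control and 56.2% (51.6 to 60.8) of fibrosis T-like cells. Within them the log2 ratio of Ccr7 was -0.35 (-0.58 to -0.12). It was -1.31 (-2.15 to -0.51) in cells with more memory-list genes, at 40 and 21 UMIs. Cells with as many of both lists had -1.13 (-1.85 to -0.45), at 56 and 27 UMIs. The part of the T-like makeup in the value of the whole class was not tested.
Cxcr6 in T-like cells was higher by 0.32 (-0.00 to 0.65) over the whole class. It was lower in the fibrosis library within the Il13 and Il1rl1 cluster (-0.76, -1.19 to -0.32), while that cluster held 24.7% of fibrosis and 9.57% of control T-like cells.

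Cxcr4 differed in opposite directions in the 2 macrophage classes. In alveolar macrophage-like cells 261 control UMIs over 680 cells and 242 fibrosis UMIs over 928 cells gave 75.1 and 45.5 CPM and a log2 ratio of -0.72 (-0.98 to -0.47). The ratio was -0.63 (-0.999 to -0.27) in the main cluster, -1.12 (-1.72 to -0.49) in the cluster led by Mmp12 and 0.10 (-0.55 to 0.77) in the proliferating cluster. The lower level was thus present in the 2 clusters that held most of the class and not detectable in the proliferating one. In interstitial macrophage-like cells 29 and 109 UMIs gave 51.4 and 81.8 CPM and a log2 ratio of 0.67 (0.07 to 1.31). The ratio was 0.67 (-0.23 to 1.64) in the Cd209f and Lyve1 cluster, at 16 and 32 UMIs. It was 0.75 (-0.16 to 1.78) in the Zmynd15 and Clec4b1 cluster, at 12 and 61 UMIs. Both cluster intervals included 0. In thinned cells the shares with a Cxcr4 UMI were 7.50% and 4.31% of alveolar and 3.90% and 7.25% of interstitial macrophage-like cells, at like median depths in both libraries (4898.5 and 5246.5, and 3270 and 3261). In alveolar type 2-like cells they were 0.613% and 0.101%. Unthinned, the shares were 30.3% and 20.5% of alveolar and 14.3% and 22.6% of interstitial macrophage-like cells, against 2.30% and 0.606% of alveolar type 2-like cells.

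In classical monocyte-like cells Ccr2 was alike in both libraries within a narrow interval (log2 ratio 0.02, -0.06 to 0.11), with 6855 and 1315 UMIs. Cx3cr1 was higher in the fibrosis library by 0.38 (0.15 to 0.61) and Ccr1 by 0.55 (0.21 to 0.87). By cluster, Cx3cr1 was higher by 0.72 (0.34 to 1.08) in the cluster led by Adgre4 and Rtp4 and by 0.16 (-0.19 to 0.50) in the cluster led by Wfdc21 and Thbs1. Ccr1 was higher by 0.62 (0.24 to 0.98) in the latter.
In interstitial macrophage-like cells Cx3cr1 was alike over the class (-0.06, -0.25 to 0.13) and higher in the fibrosis library in the Cd209f and Lyve1 cluster (0.50, 0.22 to 0.77). Their Ccr2 ratio was 0.13 (-0.16 to 0.42) over the class. It was 0.52 (0.09 to 0.97) in cells with a Folr2, Cd163 or Stab1 UMI and -0.77 (-1.16 to -0.36) in those without. In type 2 dendritic-like cells it was 0.82 (0.32 to 1.35) in the main cluster and -0.38 (-1.04 to 0.30) in the cluster led by Ifitm6. Ccr2 was lower in the fibrosis library in type 1 dendritic-like cells (-0.28, -0.52 to -0.03, but -0.16, -0.44 to 0.11, within their main cluster), in nonclassical monocyte-like cells (-0.35, -0.69 to -0.03) and in alveolar macrophage-like cells (-0.69, -1.26 to -0.13), the last at 57 and 54 UMIs. In nonclassical monocyte-like cells the Ccr2 ratio was -0.79 (-1.30 to -0.31) in the main cluster and -0.01 (-0.61 to 0.56) in the cluster led by Isg15 and H2-Eb1. In alveolar macrophage-like cells it was -0.98 (-1.88 to -0.14) in the main cluster. In their Mmp12 cluster it was -0.05 (-1.43 to 1.68), at 5 and 29 UMIs. The alveolar macrophage levels of 16.4 and 10.2 CPM were not far above the background class. Alveolar type 2-like cells had Ccr2 at 6.57 and 3.91 CPM, with a log2 ratio of -0.75 (-1.62 to 0.12).

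The classes that held the UMIs of Ccr2, Ccr1 and Cx3cr1 differed between the libraries. Ccr2 had 9761 UMIs in kept control cells and 4217 in kept fibrosis cells, and the share held by classical monocyte-like cells was 70.2% and 31.2%. Cells between 2 gates held 1296 and 1043 of these UMIs, and cells below every gate 413 and 354. Cells without a class thus held a larger part of the Ccr2 UMIs in the fibrosis library. Neutrophil-like cells held 37.4% of control and 5.84% of fibrosis Ccr1 UMIs, and alveolar macrophage-like cells 15.0% and 37.1%. Interstitial macrophage-like cells held 15.3% of control and 40.2% of fibrosis Cx3cr1 UMIs. The share of cells of a class in a library depends on how the lung was digested as well as on the lung, and these cannot be told apart here.

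Of 14 other chemokine receptors, 7 had enough UMIs in at least 1 leukocyte class, and 2 of 14 pairs (14.3%) passed 2-fold, both lower in fibrosis (median log2 ratio -0.25), against 9.19% of all gene and class pairs. Where gate and cluster gave the same class it was 2 of 13 pairs (15.4%), 1 higher and 1 lower. The direction of the list thus depends on the choice of cells. Cxcr3, a receptor of effector T cells, was lower in T-like cells at 49.9 and 24.5 CPM, and Cxcr1, a second neutrophil receptor, in neutrophil-like cells at 78.1 and 25.02 CPM, the latter with 6 fibrosis UMIs. In the cells whose gate and cluster gave the same class, Cxcr3 was at 41.6 and 18.4 CPM in T-like cells, and Cxcr1 at 76.6 and 40.3 CPM in neutrophil-like cells with an interval of the log2 ratio that included 0 (-0.93, -2.84 to 0.48). Xcr1 was highest in type 1 dendritic-like cells at 303 and 258 CPM, and Cxcr5, which guides B cells to follicles, in B-like cells at 98.8 and 81.7 CPM.

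Of 19 ligands of the 9 receptors, 13 had enough UMIs in a leukocyte class, and 22 of 62 pairs (35.5%) passed 2-fold, 19 higher and 3 lower in fibrosis (median log2 ratio 0.39), against 9.19% of all pairs in either direction and 5.78% higher. In the cells whose gate and cluster gave the same class it was 15 of 53 pairs (28.3%), 13 higher and 2 lower. The share of all genes past 2-fold in those cells is not given here. The ligand Ccl6 was at 693 and 1860 CPM in interstitial macrophage-like cells, and at 713 and 1032 CPM in those whose cluster gave the same class. That difference was under 2-fold, and alveolar macrophage-like cells, whose Mmp12 cluster held 26 of the fibrosis cells in the interstitial gate, were at 6344 and 8441 CPM. Ccl12, a ligand of Ccr2, was at 406 and 179 CPM in interstitial macrophage-like cells and at 419 and 220 CPM in those whose cluster gave the same class, a fold under 2. Cxcl2, a ligand of Cxcr2, was at 126 and 296 CPM in neutrophil-like cells and at 136 and 544 CPM in those whose cluster gave the same class. The Ccr9 ligand Ccl25 was at most 22.5 CPM in any class. The Ccr7 ligand Ccl21a and the Cx3cr1 ligand Cx3cl1 were highest in endothelial-like cells, at 1008 and 2980 CPM and at 72.2 and 48.2 CPM.
Of 13 signalling genes downstream of the receptors, such as G protein subunits and arrestins, 11 of 124 pairs (8.87%) passed 2-fold, 5 higher and 6 lower (median log2 ratio -0.09), near the 9.19% of all pairs. Where gate and cluster gave the same class it was 8 of 121 pairs (6.61%), 6 higher and 2 lower. Rgs1, which shortens G protein signals, was higher in T-like cells at 24.95 and 52.6 CPM and in interstitial macrophage-like cells at 26.6 and 88.6 CPM (28.2 and 58.8 CPM where gate and cluster gave the same class).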

How the data were processed

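The deposited values are raw UMI counts per gene and cell, made with bcl2fastq and Cell Ranger 1.3 on mm10 per the submitters' processing notes, with no normalization. Cells with under 200 genes or over 10% mitochondrial UMIs and the top-scoring cells against simulated doublets (0.8% per 1000 cells) were removed. A cell joined a class with at least 3 of its markers and a lead of 2 over the next class. Markers found in over 40% of kept cells were dropped. T-like cells needed a Cd3d, Cd3e or Cd3g UMI, and group 2 innate lymphoid-like cells none. These thresholds were set after seeing the data. The receptors, gene lists and markers were chosen with earlier results of these data known. Of the other receptors and of the naive T cell list, 1 gene each was taken out afterwards and is not reported here. All 9 receptors are named, and genes from the lists where they passed 2-fold in a class where a receptor they pair with is high or by their highest class. Counts were summed per class and library and given as CPM with exact Poisson, Clopper-Pearson or conditional binomial 95% intervals. Zeros carry a limit of 3 counts. Leiden clusters (scanpy 1.11.5, resolution 1.5, receptors left out of the variable genes) served as alternative classes and as subsets. The ratio intervals were run on Poisson counts simulated from classical monocyte-like sums. That simulation held no spread between cells and no mixed droplets, so it cannot show how the intervals hold in these data. Python 3.11.15, numpy 2.4.6 and scipy 1.17.1 were used. Alternatives were other classes, filters, scaling, thinning to 1000 UMIs and other UMI or fold minimums. Cells kept only where gate and cluster gave the same class were added after seeing the data. The counting of antisense and overlapping reads is not given in the sources used here.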

Additional observations from a re-analysis of the deposited data

Results flagged for a closer look

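For 3 receptors the ratios ran in opposite directions in different classes, with intervals that exclude 0 for both classes; the difference between classes was not tested, since each group is 1 library. The log2 ratio of fibrosis over control for Ccr1 was 0.55 in classical monocyte-like and -0.84 in neutrophil-like cells, where it was -0.43 (-0.96 to 0.07) in cells whose gate and cluster gave the same class, an interval that includes 0. For Cxcr4 it was 0.67 in interstitial and -0.72 in alveolar macrophage-like cells. Within each of the main interstitial clusters the Cxcr4 interval included 0. For Ccr2 it was 1.27 in B-like cells, where it turns with the choice of cells, and -0.69 in alveolar macrophage-like cells. In the background class of alveolar type 2-like cells the Ccr2 ratio was -0.75 (-1.62 to 0.12).

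Cells that entered no class also carried Cxcr6. The log2 ratio of fibrosis over control was 2.56 (1.03 to 4.54) in cells below every gate, with 4 and 25 UMIs, and 0.62 (0.06 to 1.20) in cells between 2 gates, with 38 and 93 UMIs.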

How the results depend on the processing

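No paired analysis was possible because each group holds 1 library, although both labels carry the same mouse number. Over 447 recomputed log2 ratios, 413 moved by less than counting error, 29 moved by more and 5 were counted as turned. Some ratios near 0 changed sign without being counted as turned. Ccr2 in NK-like cells went from -0.07 to 0.06 where gate and cluster gave the same class. Ccr6 in B-like cells went from -0.09 to 0.07 there. With classes from clusters the ratio was -1.08 for Ccr2 in B-like cells (turned), 0.049 for Cxcr2 (turned) and -0.41 for Ccr1 in neutrophil-like cells and 0.66 for Cxcr6 in T-like cells. With gate and cluster giving the same class it was -1.22 for Ccr2 in B-like cells (turned), 0.046 for Cxcr2 (turned) and -0.43 for Ccr1 in neutrophil-like cells and 0.19 for Cx3cr1 in interstitial macrophage-like cells (from -0.06). By thinned shares it was -0.51 for Ccr2 (turned) and -0.38 for Ccr7 in B-like cells, 0.76 for Cxcr6 in T-like cells, -0.17 for Ccr1 in neutrophil-like cells and 0.18 for Cx3cr1 in interstitial macrophage-like cells. Levels from clusters were 342 CPM for Ccr1 and 847 CPM for Cxcr2 in fibrosis neutrophil-like, 238 CPM for Ccr7 in fibrosis B-like, 539 and 455 CPM for Ccr9 in control and fibrosis plasmacytoid dendritic-like and 145 CPM for Cxcr6 in fibrosis T-like cells. Averaging each cell's CPM gave 701 CPM for Cxcr2 in fibrosis neutrophil-like, 106 CPM for Cxcr4 in control nonclassical monocyte-like and 637 CPM for Cx3cr1 in fibrosis interstitial macrophage-like cells. Pairs past the fold were 13 of 63 with at least 10 UMIs (14.1% of all genes), 1 of 36 with at least 50 (4.97%), 15 of 50 at a fold of 1.5 (25.01% of all genes) and 5 of 50 with median-ratio scaling (9.07%), against 4 of 50. Fewer than 20 UMIs in a class kept Ccr6, Ccr9 and Cxcr6 out of the comparison in most classes, and in the sparse classes intervals span more than 2-fold. The cause of these shifts was not tested.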

Other observations

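Endothelial-like cells carried Cxcr2 at 50.9 CPM in the control (43 UMIs) and 9.04 CPM in the fibrosis library (9 UMIs). Other receptors were found there too and were also lower in the fibrosis library. Ccr2 was at 61.5 and 19.1 CPM, Ccr1 at 30.8 and 15.1 CPM and Ccr7 at 17.7 and 5.02 CPM. For Cxcr4 and Cx3cr1 the interval included 0, and Cxcr6 had 2 and 3 UMIs. Whether these UMIs come from endothelial cells was not tested. In the same cells the platelet gene Ppbp, a ligand of Cxcr2, had 51 UMIs in the control library. The 13 basophil- or mast-like cells of the control library had 6 UMIs each of Ccr1, Ccr2 and Cxcr2, or 262 CPM (96.2 to 570), and the fibrosis library held 1 such cell.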
